A study of Mus musculus with 15 samples.

Results

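Expression of 34 genes that mark blood vessel endothelium was examined in mouse RPE/choroid, the layer made of the retinal pigment epithelium (RPE) and the vascular bed behind it, and in cultured mouse RPE (mRPE) cells. The genes are listed by name for their known use in endothelial cells; the rule uses no measured value, but the list was drawn up with earlier results of these data known. All 34 were listed among the 25038 genes of the RPE/choroid count table, and 20 of the 34 among the 20910 genes of the mRPE count table. The tissue came from 3 WT libraries and 3 libraries labelled Prom1-KO, from mice in which Prom1fl/fl was combined with RPE65-Cre and tamoxifen was given by gavage, so that the deletion was aimed at the RPE and not at endothelial cells or photoreceptors. The study's methods give an age of 6 to 8 weeks and both sexes for the mice of the project, without naming these lines. Whether the WT mice carried a floxed allele or Cre, or received tamoxifen, is not given in the sources used here. Among the mRPE libraries 4 were of WT cells, 3 of the knockout clone KO22 and 2 of the clone KO26, and they were sequenced in batches 1 and 2. The study set both KO26 libraries aside as outliers, and proposes biological heterogeneity or technical anomalies for them. They were kept here. All mRPE cells descend from pooled C57BL/6J mice aged 8 to 12 weeks and were immortalized with viral E6/E7 genes. Each knockout line is 1 clone, selected after Cas9 cutting in Prom1. The labels do not say that libraries of one group came from separate animals or cultures, so the p-values measure the spread between libraries, which may be technical.

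The choroid supplies the outer retina with blood, and its innermost capillary sheet, the choriocapillaris, lies directly against the RPE. Its endothelium is fenestrated: thin pores, bridged by diaphragms of the protein encoded by Plvap, let plasma solutes pass towards the RPE. The RPE in turn secretes VEGF-A, on which the maintenance of this capillary bed is known to depend. Endothelial identity is held by ETS-family factors such as Erg and by the SoxF factors Sox7, Sox17 and Sox18, while Cdh5 (VE-cadherin), Pecam1 and Cldn5 join neighbouring cells and the angiopoietin receptor Tek, with Tie1 and the phosphatase Ptprb, steadies the vessel wall.

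Total counts ranged from 48154444 to 61766179 in the RPE/choroid libraries, of which mitochondrially encoded genes took 64.93 to 69.14% in WT and 71.31, 71.04 and 84.17% in the 3 Prom1-KO libraries. The count left outside these genes was lowest in Prom1-KO library 3, at 9776466, against 13814072 to 19655673 in the other libraries. Levels are therefore given as CPM (the count of a gene scaled to a common library size) on the TMM scale, which sets the bulk of genes level between libraries. The targeted gene itself was not lower by the test: Prom1 stood at 48.7, 49.6 and 53.3 CPM in WT and at 49.9, 48.1 and 35.5 CPM in the libraries labelled Prom1-KO (log2 fold change -0.18, SE 0.158, adjusted p = 0.824), so the groups are called by their labels below. The groups also differed in sex-linked genes. Xist was at 3.21 to 3.60 CPM in the 3 WT libraries, at 1316 and 1146 CPM in Prom1-KO libraries 1 and 2, and at 1.79 CPM in Prom1-KO library 3, which carried Y-linked transcripts as the WT libraries did. Sex and genotype thus cannot be told apart in libraries 1 and 2.

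In WT RPE/choroid, levels per kilobase of annotated exon were highest for Ptprb, at a mean of 5.71 CPM per kb. Next came the mucin-like glycoprotein Emcn at 4.94 and the TGF-beta co-receptor Eng at 4.44 CPM per kb. Erg (3.803), Cdh5 (3.75), Ramp2 (3.68), Clec14a (3.62), Plvap (3.20), Sox18 (2.695) and Tek (2.66 CPM per kb) completed the 10 most abundant members. The apelin receptor Aplnr (0.0421) and its ligand Apln (0.0794 CPM per kb) were the lowest. The defining endothelial junction, receptor and transcription factor genes were thus all measured in this RPE/choroid tissue. The order of neighbours within this list should not be read closely, since the 3 WT libraries themselves spread widely: WT library 2 was the highest of the 3 for 32 of the 34 genes, and WT library 1 the lowest for 31. Ptprb, for example, stood at 53.4, 115 and 77.9 CPM in WT libraries 1, 2 and 3.

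**Figure D1:**
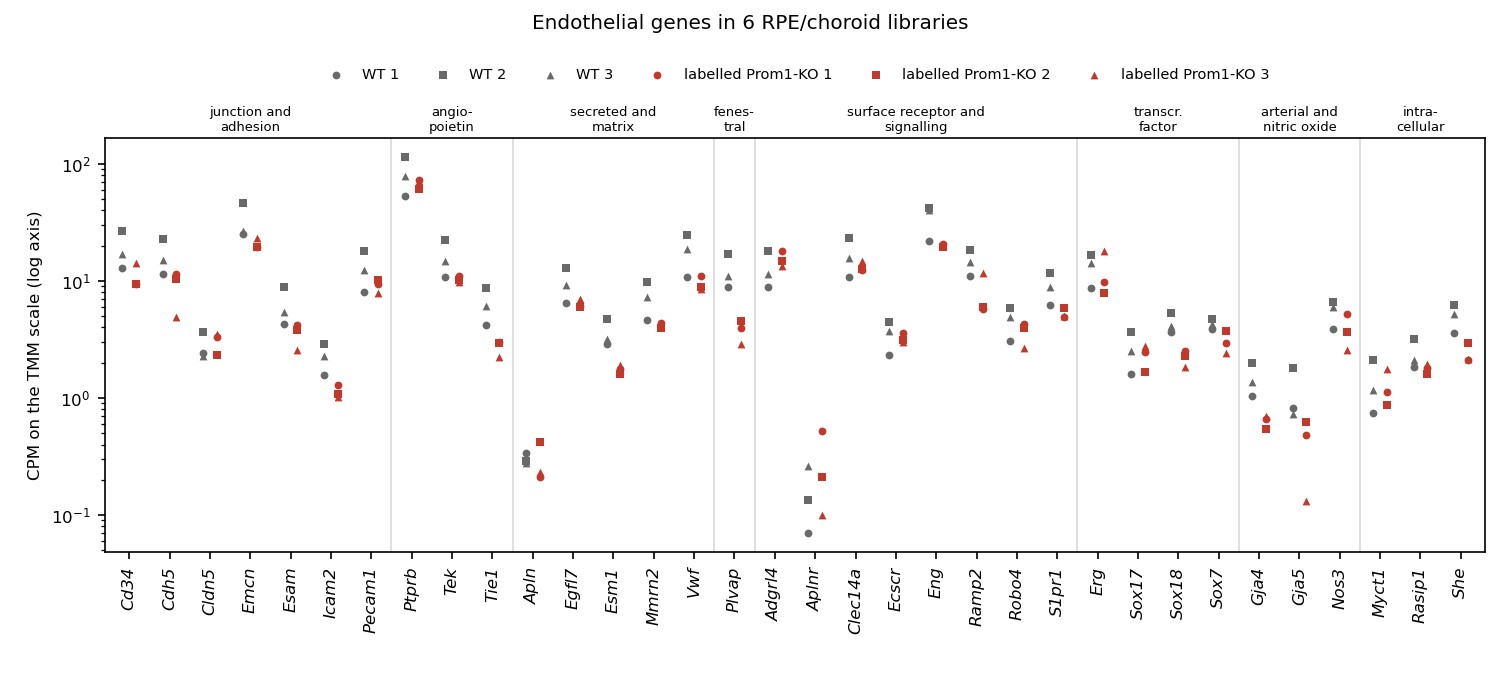
Level of each of the 34 endothelial genes in CPM on the TMM scale (log axis) in the 3 WT (grey) and 3 Prom1-KO (red) RPE/choroid libraries, grouped by role; each point is 1 library and its shape gives the library number. WT library 2 (grey squares) is the highest of the 6 libraries for 31 genes, while WT library 1 often lies close to the Prom1-KO libraries.

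The comparison of Prom1-KO with WT RPE/choroid asks how the tissue's vascular genes stand when deletion of Prom1 is aimed at the neighbouring epithelium. Most of the endothelial genes were listed lower in the Prom1-KO libraries: 31 of 34 had a log2 fold change below 0, against 48.2% of all 24926 genes tested. The median log2 fold change of the 34 was -0.63, and that of all genes 0.01. At an unadjusted p under 0.05, 19 members were lower and 0 higher, where 4.31% of all genes were lower and 3.98% higher. All 3 Prom1-KO libraries lay below all 3 WT libraries for 14 members, against 7.89% of all genes, and above them for 0 members, against 6.71%. However, no member passed both limits (adjusted p under 0.05 and log2 fold change beyond 1.2 in size) in edgeR's quasi-likelihood test, which 0.189% of all genes passed as lower and 0% as higher. The smallest adjusted p of a member was 0.0993, for Plvap. With DESeq2, 2 members passed both limits, Plvap (log2 fold change -1.69, adjusted p = 1.301e-05) and Tie1 (-1.21, adjusted p = 0.0116), beside 189 lower and 84 higher genes in the whole table. In bulk tissue, fewer endothelial cells and less of each transcript per cell cannot be told apart.

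**Figure D2:**
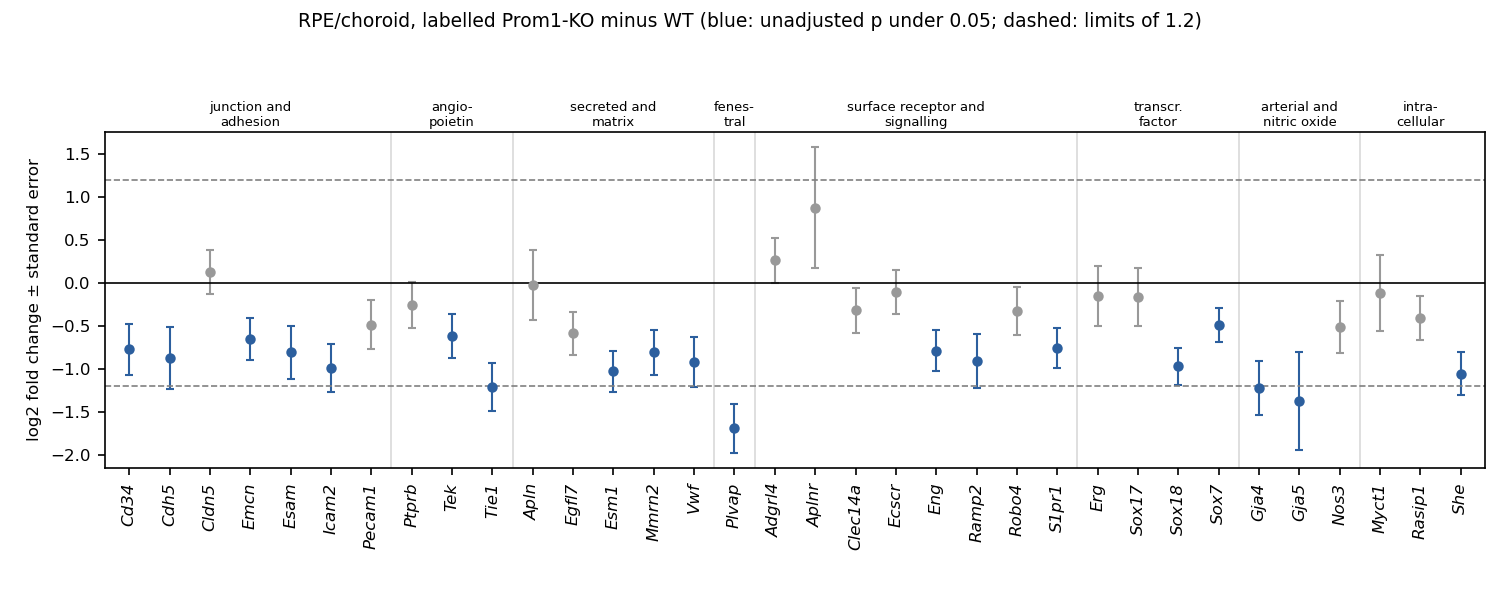
Log2 fold change (Prom1-KO minus WT RPE/choroid) with its standard error for the 34 endothelial genes, grouped by role; blue marks an unadjusted p under 0.05 and the dashed lines stand at 1.2 and -1.2. All 19 blue points lie below 0, with Plvap lowest at -1.69.

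Plvap, which encodes the diaphragm protein of fenestrae, showed the lowest log2 fold change of the 34. Its level was 8.85, 17.1 and 10.9 CPM in WT and 3.94, 4.54 and 2.89 CPM in Prom1-KO. Every Prom1-KO library was below every WT library, a 3.22-fold lower level in the fit (log2 fold change -1.69, SE 0.284, unadjusted p = 0.000482). Plvap lies at chr8:71948674-71964506 on the minus strand of GRCm39, and 21.7% of its exonic length overlaps Gtpbp3 on the opposite strand. The strand setting of the counting is not given in the sources used here, so reads from overlapping genes on opposite strands may be shared. The same limit holds for Sox18, Icam2, Gja4 and Nos3, each with over 20% of its exonic length in such an overlap.

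Among the angiopoietin receptor genes, Tie1 and Tek were both lower at an unadjusted p under 0.05 (4.31% of all genes), and the third was not. Tie1, the orphan partner of Tek, was at 4.21, 8.71 and 6.12 CPM in WT and at 2.99, 2.97 and 2.22 CPM in Prom1-KO (log2 fold change -1.21, SE 0.281, adjusted p = 0.222). The 2 groups of Tie1 values did not overlap. Tek itself read 10.7, 22.2 and 14.9 CPM in WT against 11.1, 10.3 and 9.82 CPM in Prom1-KO (log2 fold change -0.62, SE 0.255, adjusted p = 0.587), and WT library 1 lay within the Prom1-KO range. Ptprb, the phosphatase that dampens Tek signalling, was at 73.0, 60.4 and 71.8 CPM in Prom1-KO, inside the WT range given above (log2 fold change -0.26, SE 0.266).

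The SoxF factors were not uniform. Sox18 was at 3.69, 5.33 and 4.13 CPM in WT and at 2.54, 2.30 and 1.82 CPM in Prom1-KO, with no overlap (log2 fold change -0.97, SE 0.211, adjusted p = 0.199). Sox7 was likewise lower in every Prom1-KO library, at 2.95, 3.71 and 2.42 against 3.86, 4.69 and 4.29 CPM in WT (log2 fold change -0.49, SE 0.197). Sox17, the member tied to arterial fate, read 1.61, 3.67 and 2.51 CPM in WT and 2.49, 1.68 and 2.79 CPM in Prom1-KO, and its groups overlapped fully (log2 fold change -0.17, SE 0.336). The ETS factor Erg read 8.77, 16.6 and 14.3 CPM in WT and 9.76, 7.95 and 18.0 CPM in Prom1-KO (log2 fold change -0.16, SE 0.3504). Prom1-KO library 3 held the highest Erg level of all 6 libraries, and this marker of endothelial nuclei did not separate the groups.

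Of the 7 junction and adhesion genes, 5 were lower at an unadjusted p under 0.05 (4.31% of all genes). Icam2, an adhesion molecule of resting endothelium, was at 1.56, 2.91 and 2.27 CPM in WT and at 1.28, 1.08 and 1.03 CPM in Prom1-KO, without overlap (log2 fold change -0.99, SE 0.278). Emcn was at 25.0, 45.9 and 26.8 CPM in WT and at 19.3, 19.6 and 23.4 CPM in Prom1-KO, also without overlap (log2 fold change -0.65, SE 0.245). Esam, a tight junction adhesion molecule, read 4.31, 8.78 and 5.42 CPM against 4.17, 3.77 and 2.55 CPM (log2 fold change -0.81, SE 0.304). The Esam and Icam2 groups were separated only by a narrow gap to WT library 1. Cd34, a sialomucin of capillary surfaces, was at 13.0, 26.8 and 16.9 CPM in WT and 9.43, 9.44 and 14.3 CPM in Prom1-KO (log2 fold change -0.77, SE 0.296), and Prom1-KO library 3 lay above WT library 1. Cdh5, the adherens junction cadherin, was at 11.4, 22.8 and 15.1 CPM in WT and 11.4, 10.4 and 4.94 CPM in Prom1-KO (log2 fold change -0.88, SE 0.360). Prom1-KO library 3 held the lowest Cdh5 level of its group but the highest Cd34 level. None of the 7 passed the adjusted limit in edgeR's quasi-likelihood test, with the smallest adjusted p at 0.351 for Icam2. The 2 remaining junction genes did not reach an unadjusted p under 0.05 either. Pecam1 was at 8.08, 18.1 and 12.4 CPM in WT and 9.34, 10.3 and 7.86 CPM in Prom1-KO (log2 fold change -0.49, SE 0.282), and Cldn5, the tight junction claudin of barrier vessels, at 2.40, 3.69 and 2.30 CPM in WT and 3.30, 2.32 and 3.55 CPM in Prom1-KO (log2 fold change 0.12, SE 0.259).

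The secreted and matrix-associated genes included 3 of 5 that were lower at an unadjusted p under 0.05 (4.31% of all genes). Esm1, a proteoglycan shed by endothelial cells under VEGF-A, was at 2.88, 4.74 and 3.21 CPM in WT and at 1.77, 1.62 and 1.92 CPM in Prom1-KO, with no overlap (log2 fold change -1.03, SE 0.234, adjusted p = 0.212). Mmrn2, a matrix ligand of Clec14a, was at 4.66, 9.79 and 7.24 CPM in WT and at 4.39, 3.93 and 4.08 CPM in Prom1-KO, also without overlap (log2 fold change -0.81, SE 0.263). Vwf, the clotting factor carrier stored in endothelial granules, read 10.8, 24.6 and 18.5 CPM against 11.0, 8.95 and 8.49 CPM (log2 fold change -0.92, SE 0.290). For Vwf the lowest WT library lay just below the highest Prom1-KO library. Egfl7, an angiogenic matrix protein, read 6.44, 12.9 and 9.28 CPM in WT and 6.06, 5.98 and 7.07 CPM in Prom1-KO (log2 fold change -0.58, SE 0.250), and 13.6% of its exonic length overlaps Agpat2 on the opposite strand. Apln, the apelin peptide of sprouting tip cells, was scarce at 0.337, 0.288 and 0.277 CPM in WT and 0.214, 0.424 and 0.232 CPM in Prom1-KO, and no difference was detectable at this depth.

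Of the 8 surface receptors, 3 were lower at an unadjusted p under 0.05 (4.31% of all genes). Eng stood at 22.0, 41.8 and 39.9 CPM in WT and at 20.7, 19.6 and 19.7 CPM in Prom1-KO, without overlap (log2 fold change -0.79, SE 0.239). S1pr1, the receptor through which sphingosine 1-phosphate seals the endothelium, stood at 6.23, 11.6 and 8.80 CPM in WT and at 4.95, 5.84 and 4.98 CPM in Prom1-KO, also without overlap (log2 fold change -0.75, SE 0.233). Ramp2, which turns the calcitonin-like receptor into a receptor for adrenomedullin, was at 10.9, 18.3 and 14.6 CPM in WT against 5.78, 6.02 and 11.7 CPM in Prom1-KO (log2 fold change -0.91, SE 0.317). Prom1-KO library 3 again stood above the other Prom1-KO libraries for Ramp2, and 28.5% of the exonic length of this gene is shared with Vps25 on the same strand, so its counts are uncertain. Clec14a, a lectin of the tumour and developing vasculature, read 10.8, 23.1 and 15.7 CPM in WT and 12.4, 12.6 and 14.7 CPM in Prom1-KO (log2 fold change -0.32, SE 0.265). Robo4, a receptor that stabilizes vessels, read 3.09, 5.82 and 4.91 CPM against 4.29, 3.95 and 2.69 CPM (log2 fold change -0.33, SE 0.279). Both sets overlapped, as did those of Ecscr, an endothelial surface protein that modulates chemotaxis, at 2.31, 4.47 and 3.75 CPM in WT and 3.57, 3.15 and 3.02 CPM in Prom1-KO (log2 fold change -0.11, SE 0.253). Adgrl4, an adhesion G-protein-coupled receptor, was listed higher at 18.0, 14.9 and 13.3 CPM in Prom1-KO against 8.93, 18.1 and 11.5 CPM in WT (log2 fold change 0.26, SE 0.265). Aplnr, at 0.0701, 0.135 and 0.262 CPM in WT and 0.524, 0.212 and 0.0995 CPM in Prom1-KO, was scarce, with 3 to 27 counts per library, and its log2 fold change of 0.87 had an SE of 0.704.

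The arterial gap junction genes and the endothelial nitric oxide synthase were split. Gja4 (connexin 37) was at 1.04, 2.00 and 1.37 CPM in WT and at 0.660, 0.539 and 0.697 CPM in Prom1-KO, with no overlap (log2 fold change -1.22, SE 0.315, adjusted p = 0.296). Gja5 (connexin 40) was at 0.814, 1.81 and 0.729 CPM in WT and 0.485, 0.620 and 0.133 CPM in Prom1-KO, also without overlap (log2 fold change -1.37, SE 0.571). Nos3 read 3.87, 6.65 and 5.98 CPM against 5.24, 3.64 and 2.59 CPM, with overlap (log2 fold change -0.52, SE 0.302). Among the 3 remaining members, She, an SH2-domain adaptor, was at 3.59, 6.24 and 5.22 CPM in WT and 2.12, 2.94 and 2.16 CPM in Prom1-KO, without overlap (log2 fold change -1.06, SE 0.250, adjusted p = 0.233). Rasip1, which is needed for vessel lumen formation, read 1.82, 3.20 and 2.13 CPM against 1.81, 1.62 and 1.96 CPM (log2 fold change -0.41, SE 0.255), and 27.2% of its exonic length is shared with Izumo1 on the same strand. Myct1, a membrane protein of endothelium, read 0.743, 2.11 and 1.18 CPM against 1.13, 0.865 and 1.76 CPM (log2 fold change -0.12, SE 0.440).

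Promoter sequence was read for the members with the smallest p that have an entry in the RefSeq promoter table (GRCm38.p6), to show what these regions look like upstream of genes that stood lower together. The 250 bases before the start are printed 5′ to 3′ on the gene's strand, with capitals marking the ETS letters CAGGAA or CCGGAA found on either strand. They are from chr13:113209409-113209658 (plus strand) for Esm1, chr4:118489850-118490099 (minus) for Tie1, chr3:89831120-89831369 (plus) for She and chr4:127314040-127314289 (minus) for Gja4.
Esm1: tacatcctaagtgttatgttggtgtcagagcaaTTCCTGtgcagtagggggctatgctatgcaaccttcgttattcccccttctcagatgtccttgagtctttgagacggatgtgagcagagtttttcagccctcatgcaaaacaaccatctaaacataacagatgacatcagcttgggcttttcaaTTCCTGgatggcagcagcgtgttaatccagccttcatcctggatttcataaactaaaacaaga
Tie1: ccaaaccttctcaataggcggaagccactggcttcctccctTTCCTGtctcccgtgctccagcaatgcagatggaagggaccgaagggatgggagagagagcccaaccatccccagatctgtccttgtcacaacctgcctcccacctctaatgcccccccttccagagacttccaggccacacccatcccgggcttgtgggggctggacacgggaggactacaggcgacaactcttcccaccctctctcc
She: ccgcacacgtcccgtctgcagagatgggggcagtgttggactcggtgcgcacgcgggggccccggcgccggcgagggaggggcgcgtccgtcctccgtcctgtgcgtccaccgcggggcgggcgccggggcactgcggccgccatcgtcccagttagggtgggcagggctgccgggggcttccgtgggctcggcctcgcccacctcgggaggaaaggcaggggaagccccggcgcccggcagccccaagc
Gja4: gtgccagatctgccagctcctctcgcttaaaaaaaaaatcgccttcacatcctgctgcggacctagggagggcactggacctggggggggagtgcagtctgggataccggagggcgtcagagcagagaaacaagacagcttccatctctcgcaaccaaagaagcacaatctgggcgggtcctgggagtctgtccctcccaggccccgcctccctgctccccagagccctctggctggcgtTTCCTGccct
Esm1 held 2 matches, Tie1 and Gja4 1 each, and She 0. Entries were found for 18 of the 34 genes, with 22 promoters of 300 bases (250 before and 50 after the start). The ETS letters occurred in 16 of these 22 promoters (72.7%), against 41.4% of all 32851 promoters in the table. The letters ACAAT, the core that SOX factors bind, occurred on either strand in 7 (31.8%) against 31.0% of all promoters, and TATAAA in 2 (9.09%) against 13.6%. None of these motifs contains another. A match is a description of the letters and not evidence of binding.

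The difference between the groups turned in part on single libraries. Summed over the 34 genes, the level was 262, 520 and 371 CPM in WT and 272, 248 and 271 CPM in Prom1-KO. On this scale the 3 Prom1-KO libraries lay close together, and WT library 1 lay within their range, so the groups overlapped. On total counts, however, the sums were 313, 584 and 492 CPM in WT and 291, 267 and 132 CPM in Prom1-KO, with Prom1-KO library 3 the lowest. For single genes on the TMM scale, WT library 2 was the highest of the 6 libraries for 31 genes and WT library 1 the lowest of all 6 for 7. Without WT library 2, the median log2 fold change of the members was -0.39, and 9 members were lower and 1 higher at an unadjusted p under 0.05 (2.75% of all genes lower). Without Prom1-KO library 2, 12 members were lower (3.87% of all genes). Without Prom1-KO library 3, which had the largest mitochondrial share, 14 were lower (5.66% of all genes), and the median stood at -0.63. Compared one at a time with the WT mean, the Prom1-KO libraries were below it for 30, 31 and 29 of the 34 genes, against 50.7, 50.7 and 52.8% of all genes tested. They were below every WT library for 19, 23 and 21 of the 34, against 25.6, 23.4 and 33.8% of all genes. WT library 1 was itself the lowest WT library for 31 of the 34, and so also lay below the WT mean for these. Standing below the WT mean thus does not by itself separate the groups. The median log2 ratio to the WT mean was -0.55 and -0.67 in the 2 libraries with high Xist and -0.74 in Prom1-KO library 3. In a fit with a sex term the genotype difference rests on Prom1-KO library 3 alone against WT, an arm of 1 library assumed to vary like the others, so that its median of -0.74 and its 11 members lower (10.1% of all genes) are those of that library, and no member passed both limits.

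Other endothelial genes, in a list of 40 that holds none of the members, were likewise mostly listed lower. This list shares genes with those below: Kdr is also in the choriocapillaris, Bmx in the arterial, Nrp2 in the venous, Flt4 in the lymphatic and Ednrb in the melanocyte list. The lists are therefore not independent. In that list 37 had a log2 fold change below 0, 15 were lower and 0 higher at an unadjusted p under 0.05, and the median was -0.48. Over all genes 48.2% were below 0, 4.31% lower and 3.98% higher. None passed both limits. The VEGF-A receptor Kdr ranged from 24.0 to 49.1 CPM in WT and from 9.26 to 22.3 CPM in Prom1-KO, with no overlap (log2 fold change -1.13, SE 0.365, adjusted p = 0.443), and Flt1 from 32.8 to 55.6 CPM against 20.5 to 31.6 CPM (log2 fold change -0.72, SE 0.236). Exoc3l2 (-1.47, SE 0.309) and Ushbp1 (-1.04, SE 0.241) had the smallest p of this list.

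Genes of the choriocapillaris were read from a list of 10, of which 3 (Plvap, Esm1 and Aplnr) are members described above. Of the 7 others, 4 were lower and 0 higher at an unadjusted p under 0.05, against 4.31% and 3.98% of all genes, and their median log2 fold change was -0.92. Car4, a carbonic anhydrase of capillary surfaces, was at 0.881 ± 0.282 CPM in WT and 0.158 ± 0.0405 CPM in Prom1-KO (SD, n = 3 each), with no overlap (log2 fold change -2.47, SE 0.399, adjusted p = 0.0843). The summed level of the whole list was 68.5, 127 and 83.0 CPM in WT and 53.9, 49.6 and 40.9 CPM in Prom1-KO. The shares of all genes that were lower or higher at an unadjusted p under 0.05, 4.31% and 3.98%, apply to the next lists as well. Of 14 arterial genes, 2 were lower, Sema3g (-1.31, SE 0.282) and the Notch ligand Dll4 (-0.88, SE 0.237). In 12 venous genes 5 were higher, with Vcam1 (0.81, SE 0.166) and Lrg1 (1.36, SE 0.312) at the smallest p, and 2 were lower, Nrp2 and the member Vwf. Among 9 lymphatic genes 2 were lower, Flt4 (-1.07, SE 0.258) and Tbx1 (-0.83, SE 0.331). None of these list genes passed both limits. Of 19 genes of barrier-forming endothelium, 5 were lower and 1 higher. In that list 14 had a log2 fold change below 0 (48.2% of all genes), and the median was -0.13. Only 1 of the 19 passed both limits, where 0.189% of all genes passed as lower. It was Slco1c1, a thyroid hormone transporter, at a mean of 13.9 CPM in WT and 1.46 CPM in Prom1-KO (log2 fold change -3.27, SE 0.247, adjusted p = 0.00556). For comparison, the median log2 fold change of the RPE genes described below was -1.66. Which cells of the bulk tissue the Slco1c1 transcripts came from was not tested.

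Ligands that act on these vessels were read from a list of 25 measured genes. Vegfa, the survival factor of the choriocapillaris, was at a mean of 41.4 CPM in WT (39.4 to 44.8) and 18.6 CPM in Prom1-KO (14.8 to 21.6), with no overlap (log2 fold change -1.15, SE 0.166, adjusted p = 0.0604). It thus missed the adjusted limit, as did Timp3, an RPE-secreted inhibitor (-0.62, SE 0.167). The angiogenesis inhibitor Thbs1 (0.92, SE 0.173) and Fgf2 (0.67, SE 0.193) were listed higher. In all, 3 of the 25 were lower and 3 higher at an unadjusted p under 0.05, against 4.31% and 3.98% of all genes, and the median was -0.11.

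Markers of other cell types differed between the same libraries to unequal degrees. RPE genes were far lower: the summed level of their list was 2907, 1828 and 2648 CPM in WT and 338, 483 and 372 CPM in Prom1-KO, and 6 of 17 tested genes passed both limits, among them Lrat (log2 fold change -3.43, SE 0.224, adjusted p = 0.00445) and Rpe65 (-6.06, SE 0.621, adjusted p = 0.0191). WT library 2, highest in endothelial genes, was the lowest WT library for the RPE list. Mural cell genes summed to 433, 520 and 457 CPM in WT and 404, 432 and 476 CPM in Prom1-KO, a list in which Pdgfrb (-0.83, SE 0.182) and Cspg4 (-1.01, SE 0.240) were lower at an unadjusted p under 0.05 and Cnn1 (0.91, SE 0.347) higher. Photoreceptor genes ranged from 83.1 to 1566 CPM in WT and from 54.9 to 832 CPM in Prom1-KO without separating the groups. Fibroblast genes ranged from 1010 to 2010 CPM in WT and from 896 to 1945 CPM in Prom1-KO. Melanocyte genes ranged from 1275 to 1795 CPM in WT and from 1718 to 1774 CPM in Prom1-KO, and macrophage and leukocyte genes from 324 to 410 CPM and from 284 to 391 CPM. A log2 fold change below 0 was listed for 19 of 22 photoreceptor genes (median -0.48) and 11 of 12 fibroblast genes (median -0.41). The same held for 10 of 18 mural cell, 6 of 11 melanocyte and 5 of 15 macrophage and leukocyte genes, against 48.2% of all genes. The part of tissue composition in the endothelial values was not tested.

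**Figure D3:**
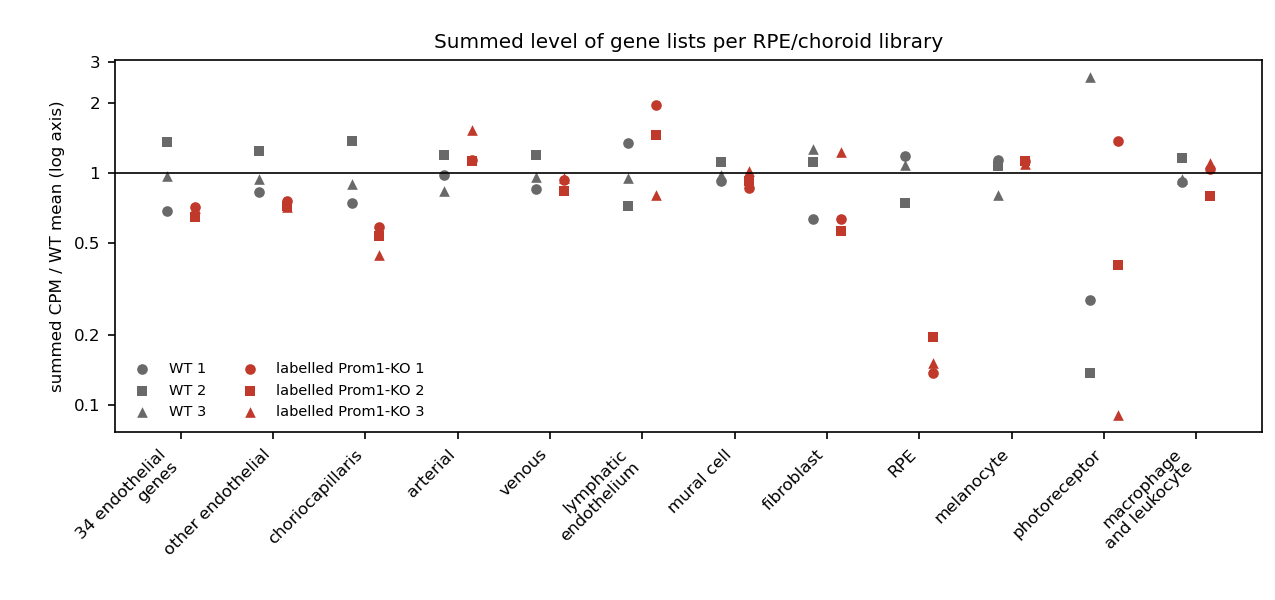
Summed CPM of each gene list in each RPE/choroid library, divided by the mean of the 3 WT libraries (log axis); each point is 1 library. The Prom1-KO libraries (red) sit below most WT libraries (grey) for the endothelial and choriocapillaris lists and far below them for the RPE list. Mural, melanocyte and macrophage lists stay near 1, and the fibroblast and photoreceptor lists spread widely with overlap between the groups.

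Cultured mRPE cells contain no vessels, and they served as a look at which endothelial genes an RPE-derived line transcribes on its own. Of the 34 genes, 14 were not among the genes of the mRPE table: Cdh5, Tie1, Emcn, Erg, Sox17, Sox18, Sox7, Cldn5, Robo4, Ptprb, Clec14a, Icam2, Nos3 and Myct1. Of the 20 listed, 16 were under 3 CPM in WT mRPE. The exceptions were Eng (mean 110 CPM), S1pr1 (19.8), Cd34 (14.3) and Apln (8.92 CPM). Per kilobase, Eng (14.1 CPM per kb) and S1pr1 (4.79) were the highest in WT mRPE. The mRPE and tissue tables were normalized separately, so no test was made between them. For 16 of 20 genes the WT tissue mean was above the WT mRPE mean, and the 4 reversals were Eng, S1pr1, Apln and Aplnr. Of the 18 genes in the list of RPE genes, 8 were listed for mRPE cells. Rpe65, Lrat and Rlbp1 were not among them, and Best1 was at a mean of 3.57 CPM.

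**Figure D4:**
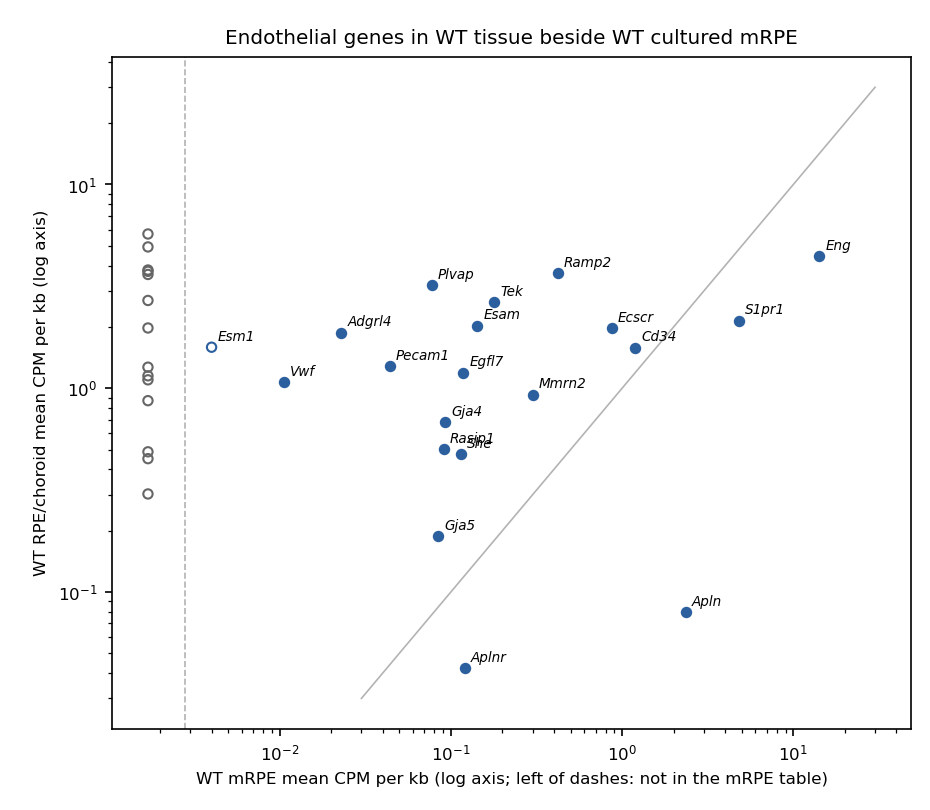
Mean level of each endothelial gene in WT RPE/choroid against WT mRPE, both in CPM per kb of annotated exon on log axes; the line marks equal values, the open blue point is at 0 in mRPE and grey points left of the dashes are not in the mRPE table. Eng, S1pr1, Apln and Aplnr lie below the line.

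In KO22 cells, much of the whole table differed from WT, and several of these genes were among those that did. Of 19 members tested against WT, 5 rose and 2 fell past both limits, where 11.4% of all 20455 genes rose and 13.8% fell. Of these, Esm1 and Plvap met the count filter only with the KO22 libraries, and Tek only with the WT libraries. The p-values of Esm1, Plvap and Tek are therefore description and not support. Without the fold limit, 6 rose and 3 fell, against 26.9% and 26.1% of all genes. In all, 7 of the 19 had a log2 fold change below 0, against 51.4% of all genes. The median log2 fold change was 0.50 for members and -0.03 for all genes.

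Ecscr was at 2.15, 1.37, 1.47 and 1.22 CPM in WT and at 48.3, 28.1 and 32.3 CPM in KO22 (log2 fold change 4.48, SE 0.155, adjusted p = 3.06e-07). In KO26 it was at 0.742 and 4.05 CPM, so every KO22 library was far above both other groups. Esm1 had 0 counts in all 4 WT libraries and 205, 115 and 93 counts in KO22 (17.7, 5.54 and 7.22 CPM, adjusted p = 1.74e-05), at least 216-fold higher against a floor of 3 counts over the 4 WT libraries. It met the count filter through the KO22 libraries alone. KO26 held 0 and 1 counts of Esm1. The gene that is shed under VEGF-A by endothelial cells was therefore read above 1 count in KO22 alone of the mRPE groups. Apln was at 8.18, 12, 7.46 and 8.04 CPM in WT and at 56.2, 61.1 and 49.6 CPM in KO22 (log2 fold change 2.64, SE 0.178, adjusted p = 4.21e-06). In KO26 the Apln level was 7.93 and 20.0 CPM, with 1 library among the WT values and 1 above them. Cd34 was at 15.9, 14.1, 14.4 and 12.8 CPM in WT and at 77.7, 54.0 and 60.9 CPM in KO22 (log2 fold change 2.13, SE 0.117, adjusted p = 1.40e-06). It stood at 37.0 and 25.0 CPM in KO26, between the other groups. Plvap rose as well, but from 19, 2, 3 and 0 counts in WT to 29, 13 and 5 counts in KO22, values that overlapped on the CPM scale (log2 fold change 1.82, SE 0.549, adjusted p = 0.0192), and without a batch term it no longer passed (adjusted p = 0.127).

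The genes that fell were Tek and Ramp2. Tek was at 0.715, 1.30, 0.982 and 1.29 CPM in WT and at 0.173, 0.241 and 0.155 CPM in KO22, with no overlap (log2 fold change -2.38, SE 0.431, adjusted p = 0.00133). Ramp2 was at 1.51, 1.17, 2.06 and 1.94 CPM in WT and at 0, 0.916 and 0.698 CPM in KO22 (log2 fold change -1.58, SE 0.562, adjusted p = 0.0389). Its call was lost without a batch term (adjusted p = 0.07119). In the same cells S1pr1, at 13.5 to 23.9 CPM in WT and 28.4 to 40.1 CPM in KO22, passed the adjusted limit but not the fold limit (log2 fold change 0.73, SE 0.216, adjusted p = 0.0172). Eng did so in the other direction, at 87.0 to 128 CPM in WT and 52.1 to 103 CPM in KO22 (log2 fold change -0.46, SE 0.136, adjusted p = 0.0178).

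Batch 1 held 1 WT and 1 KO22 library, and batch 2 held 3 WT and 2 KO22 libraries. On log2(CPM + 0.5), the KO22 minus WT difference of Ecscr was 4.20 in batch 1 and 4.05 in batch 2, that of Apln 2.71 and 2.55, and that of Cd34 2.26 and 2.02. The direction was likewise shared by both batches for Esm1 (5.19 and 3.77), Plvap (1.26 and 0.66), Tek (-0.85 and -1.27) and Ramp2 (-2.01 and -0.74). Other vascular genes also differed in KO22. The receptor gene Kdr fell from a mean of 177 CPM in WT to 2.21 CPM (log2 fold change -6.22, SE 0.474, adjusted p = 8.68e-06), and Vegfa rose from a mean of 74.8 CPM to values of 129 to 575 CPM (1.45, SE 0.423, adjusted p = 0.0165). All 4 Y-linked genes tested fell in KO22, for example Ddx3y from a mean of 53.0 to 3.78 CPM, and the part of such clonal differences in the endothelial values was not tested.

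**Figure D5:**
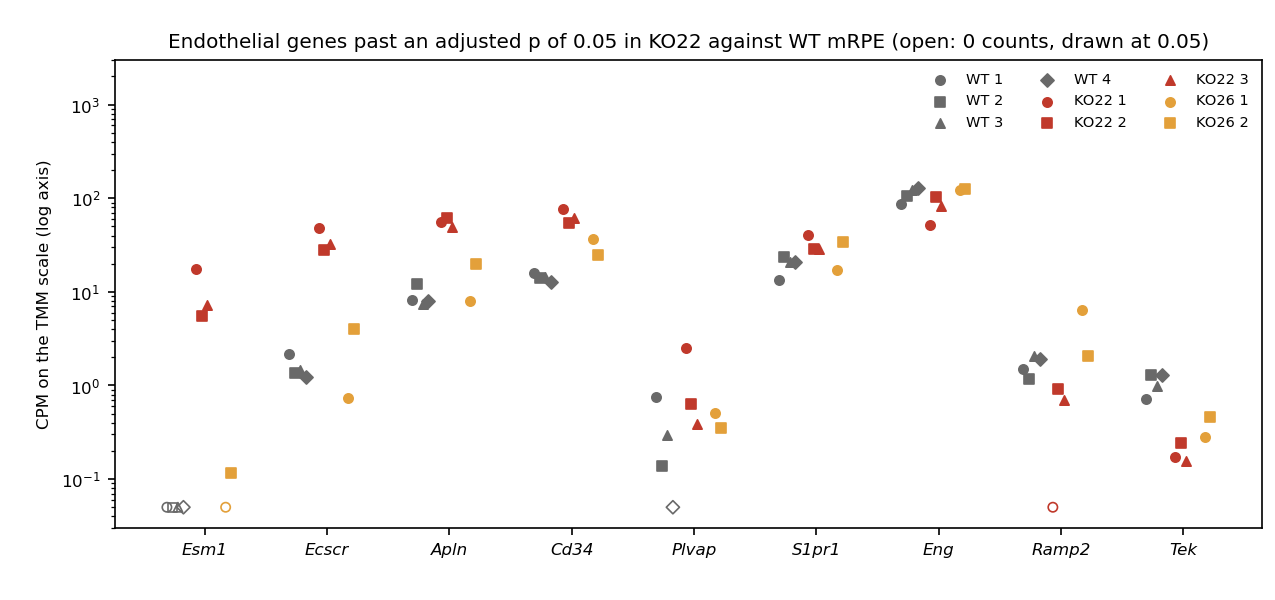
Level in CPM on the TMM scale (log axis) of the 9 endothelial genes with an adjusted p under 0.05 in KO22 against WT mRPE; grey is WT, red KO22 and yellow KO26, each point is 1 library, and open points drawn at 0.05 had 0 counts. For Esm1, Ecscr, Apln and Cd34 the KO22 libraries lie above all WT and KO26 libraries.

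Among the members, KO26 cells, from the other clone, shared little of this in the 2 libraries that the study set aside as outliers. Outside the members, Kdr was also lower in KO26, at 72.3 and 55.3 CPM against 151 to 234 CPM in WT. Vegfa, at 55.9 and 110 CPM in KO26, lay on either side of the WT range of 62.9 to 107 CPM. For some genes the KO26 libraries differed from each other, with Ecscr at 0.742 and 4.05 CPM and Ramp2 at 6.36 and 2.08 CPM. No member passed both limits against WT, where 1.21% of all 20737 genes rose and 0.719% fell. At an unadjusted p under 0.05, 1 member was higher (11.1% of all genes) and 1 lower (9.02%), Cd34 and Tek. Cd34 was the 1 member higher past the adjusted limit (2.36% of all genes; log2 fold change 1.00, SE 0.147, adjusted p = 0.00934) but not the fold limit. The median log2 fold change of the members was 0.36, and 5 of 19 were below 0, against 48% of all genes. With DESeq2, 0 members passed both limits, and 4103 genes of the whole table had an unadjusted p under 0.05.

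The difference between the clones was tested directly, again with the KO26 libraries that the study set aside. Above KO26 past both limits stood 3 members and below it 1, against 7.56% and 10.7% of all genes. The higher genes were Esm1 (adjusted p = 0.000257), Ecscr (log2 difference 4.12, SE 0.582, adjusted p = 0.00044) and Apln (2.03, SE 0.321, adjusted p = 0.00087). Esm1 met the count filter through the KO22 libraries alone, so its p-value is description and not support. Ramp2 was lower in KO22 (log2 difference -2.89, SE 0.761, adjusted p = 0.0138), a call that was lost without KO26 replicate 1 (-1.68, adjusted p = 0.157) and with the libraries of these clones alone (adjusted p = 0.126). It was at 6.36 and 2.08 CPM in KO26, and the second of these was barely above the highest WT library (2.06 CPM). Cd34 (1.12, SE 0.157) and Eng (-0.79, SE 0.194) differed past the adjusted limit alone.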

How the data were processed

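RNA-seq libraries were 6 of mouse RPE/choroid and 9 of mRPE cells, grouped by their labels. The authors' deposited tables hold raw counts per gene; per the methods, reads were trimmed with Trim Galore 0.6.7 and aligned to mm39 with STAR, which also counted genes, and the aligner is stated for mRPE only. The deposited normalized signal values equal the counts divided by 1 size factor per library and entered no test. Sample columns left unused numbered 0.

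Counts were tested with edgeR 4.0.16 in R 4.3.3, by its quasi-likelihood method with TMM factors and, for mRPE, a batch term. A gene needed 5 counts or more in 3 libraries or more, and p-values were adjusted by Benjamini-Hochberg over all genes tested. Calls needed both an adjusted p under 0.05 and a log2 fold change beyond 1.2 in size. KO26 comparisons used all 9 mRPE libraries. SE is the absolute log2 fold change over the square root of F. DESeq2 1.42.0 and other scalings, filters and library sets were alternatives. Code was tested on simulated data. Coordinates and exon lengths are from GENCODE (GRCm39), promoters from RefSeq.

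The members and gene lists were chosen with earlier results of these data known. All members are named. Other lists are represented by up to 2 genes per direction with the smallest p, except Kdr, Flt1, Vegfa in mRPE, Rpe65, Best1, Rlbp1 and Ddx3y in mRPE, chosen after their values were seen. Intervals and floors cover counting error only. Prom1 was not analysed in mRPE.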

Additional observations from a re-analysis of the deposited data

Results flagged for a closer look

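Ecscr, Apln, Esm1 and Ramp2 differed between the 2 knockout clones by a direct test over the 9 mRPE libraries. Past both limits stood 7.56% of all genes as higher in KO22 and 10.7% as lower. Each line is 1 clone, and the study set both KO26 libraries aside as outliers. Esm1 met the count filter through the KO22 libraries alone. The log2 difference between KO22 and KO26 was 4.12 for Ecscr, 2.03 for Apln, 8.32 for Esm1 (a fitted value that depends on the prior count and is no bound, since KO26 held 1 count) and -2.89 for Ramp2. For Ramp2 the difference rested on KO26 replicate 1: without that library it was -1.68 (adjusted p = 0.157).

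Apln in WT mRPE library 2 stood apart from the other 3 WT libraries, at 12 CPM against 7.46 to 8.18 CPM. Its gap took 0.841 of the group's range, over the limit of Dixon's test for 4 samples. Chance gives about 1 such case in 20, and 11 genes were examined.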

How the results depend on the processing

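In RPE/choroid, no endothelial gene passed both limits under any edgeR alternative or with any library left out, and DESeq2 called 2. The median of the 34 genes ranged from -0.82 to -0.39 with 1 library left out. Scaling to total counts gave a median of -1.11, where the median of all genes also moved to -0.46, and log2 ratios of the summed level of -1.01 with all genes and -1.10 without Ptprb. The cause was not tested. Signs changed on total counts for Cldn5 (-0.38) and Adgrl4 (-0.15), and with a sex term, added after seeing the data and resting on Prom1-KO library 3 alone, for Erg (0.45), Sox17 (0.10), Aplnr (-0.64) and Myct1 (0.39). With 1 library left out, signs also changed for Apln (-0.43 to 0.15), Cldn5 (-0.0066 to 0.37), Ecscr (-0.34 to 0.10), Erg (-0.59 to 0.069), Myct1 (-0.45 to 0.36), Ptprb (-0.49 to 0.058) and Sox17 (-0.42 to 0.16). All genes called lower numbered 47, but 84 on total counts, 12 with a sex term, 189 with DESeq2 and 9 to 37 with 1 library left out. Those called higher numbered 0, but 84 with DESeq2, 5 with a sex term, 4 on total counts and 0 to 5 with 1 library left out.

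In KO22 against WT, 5 to 9 members were called. Ramp2 lost its call in 1 fit over all 9 libraries (adjusted p = 0.0852), without WT replicates 3 (0.0881) or 4 (0.0852), without KO22 replicate 3 (0.0710), and missed the fold limit without WT replicate 1 (-1.04) or KO22 replicate 1 (-1.02). Plvap lost it without KO22 replicate 2 (adjusted p = 0.0746). With no fold limit, all genes called numbered 5506 higher and 5331 lower. In KO26 against WT, 1 member was called with no fold limit and 1 with WT and KO26 alone (Ramp2, 1.21, adjusted p = 0.0475). With 1 library left out, 0 to 1 were called, the median ranged from -0.14 to 0.77, and signs changed for Apln (-0.12 to 1.14), Ecscr (-1.53 to 1.58), Esm1 (-0.71 to 4.63), Plvap (-0.50 to 1.27) and S1pr1 (-0.14 to 0.77). Plvap stood at -0.0060 with DESeq2 size factors. All genes called, 250 higher and 149 lower, became 408 and 410 with WT and KO26 alone, 123 and 71 without a batch term, and 68 to 471 higher and 32 to 407 lower with 1 library left out. In KO22 against KO26, Ramp2 lost its call with these clones alone (-2.94, adjusted p = 0.126), S1pr1 ranged from -0.15 to 0.87 with 1 library left out, and all genes called, 1568 higher and 2229 lower, became 988 and 1348 with these clones alone. Members under 1 CPM, such as Aplnr and Gja5, carry few counts, which limits what can be read from them.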

Other observations

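In RPE/choroid, lists of other cell types were counted at an unadjusted p under 0.05, at which 3.98% of all genes were higher and 4.31% lower. None of the genes in these lists passed both limits in edgeR's quasi-likelihood test. Of 19 inner retina and Mueller glia genes, 4 were higher and 1 lower in Prom1-KO, with the glial transporter gene Slc1a3 at a mean of 22.0 CPM against 5.36 CPM in WT (log2 fold change 2.04, SE 0.472) and the potassium channel gene Kcnj10 at 4.73 against 1.13 CPM (2.07, SE 0.528). Both had no overlap between the groups. Of 15 macrophage and leukocyte genes, 5 were higher and 1 lower, among them Cx3cr1, a marker of microglia and resident macrophages (1.07, SE 0.229), and Csf1r (-0.54, SE 0.123). Of 10 Schwann cell and nerve genes, 4 were higher and 0 lower. Of 9 platelet and red cell genes, 1 was lower, the erythroid gene Alas2 (-0.70, SE 0.175), and 7 of the 9 had a log2 fold change below 0. All 13 skeletal muscle genes tested had a log2 fold change below 0 (48.2% of all genes), with a median of -0.59 and 0 past an unadjusted p of 0.05. Of 8 genes of lens, cornea and ciliary tissue, 1 was higher.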
